A study of Homo sapiens with 4 samples.

Results

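The 32 genes described here encode the machinery with which cells fold and inspect proteins in the endoplasmic reticulum (ER), together with the sensors of the unfolded protein response. They were chosen by gene symbol and not by a measured value. Each of the 32 symbols matched 1 of the 60675 genes in the tables, and all 32 passed the filter on low counts, which left 16538 genes for the test. By role they are 8 genes of the chaperone BiP and its helpers, 3 other chaperones, 5 protein disulfide isomerases, 9 genes of ER-associated degradation, 2 subunits of the translocon and 5 sensors and transducers.

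RNA sequencing was carried out on MM134 cells, a luminal line from an estrogen receptor positive lobular carcinoma of the breast. The HER2 WT line was compared with the HER2 L755S line, in which the HER2 kinase, encoded by ERBB2, carries an amino acid substitution; the labels do not say how HER2 was altered. Cells of both lines were estrogen deprived: after reaching 70% confluence they were kept for 7 days in phenol red free medium containing 5% charcoal stripped serum, so both groups lack estrogen and no group with estrogen was included. Each line has 2 libraries, numbered 1 and 2, and the labels do not say whether they came from separate cultures, so the p-values speak only to the scatter of these 4 libraries, which may be technical. Each line may also be a single clone or a pool, which the labels do not state.

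Proteins that enter the secretory pathway are folded in the ER by chaperones such as BiP, by lectins that bind glycoproteins and by enzymes that form disulfide bonds. When unfolded proteins accumulate, the membrane sensors IRE1 (ERN1), PERK (EIF2AK3) and ATF6 act through the transcription factors XBP1, ATF4 and the cleaved form of ATF6. These factors raise the transcription of chaperones and of the degradation machinery, while PERK slows translation. Breast epithelium is a secretory tissue, and XBP1 is abundant in luminal cells. IRE1 acts by splicing the XBP1 transcript, ATF6 by being cleaved and PERK by phosphorylation, none of which a count per gene measures.

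Library totals ran from 27423247 to 31088422 expected counts, and that of a single member in a library ran from 69 to 25117. Mitochondrial transcripts took 4.40% and 4.03% of the counts in the number 1 libraries (HER2 WT, then HER2 L755S) and 8.83% and 13.5% in the number 2 libraries. ERBB2 stood at 1934 and 1936 CPM, the count scaled to the library total, in the HER2 WT libraries 1 and 2 and at 2443 and 1203 CPM in those of HER2 L755S; values below keep this order of the numbers. Its levels overlapped between the lines and do not check the labels, which name a substitution. All 10 markers of luminal epithelium were detected, with a summed level of 8899 to 10081 CPM. Among them ESR1, the estrogen receptor gene, was lower in both HER2 L755S libraries, at 64.7 and 122 CPM against 176 and 282 CPM in HER2 WT, a log2 fold change of -1.29 that did not pass the test (edgeR, unadjusted p = 0.0062, adjusted p = 0.15). Of 14 leukocyte and plasma cell markers, 12 were under 1 CPM in every library and CD3E, MS4A1 and JCHAIN were at 0; of 11 fibroblast and endothelial markers, 8 were under 1 CPM everywhere and PECAM1 and CDH5 were at 0. The summed level was 37.8 to 63.0 CPM in HER2 WT and 52.4 to 104 CPM in HER2 L755S for the first list, most of it SDC1, and 55.4 to 105 and 58.3 to 117 CPM for the second, most of it COL1A1.

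No member passed the test between the lines. The gene with the smallest p-value was HERPUD1, a membrane protein of ER-associated degradation, at 70.5 and 61.3 CPM in the HER2 WT libraries and 145 and 103 CPM in those of HER2 L755S. Of the members, 30 of 32 had a log2 fold change (HER2 L755S over HER2 WT) of less than 0.5 in size, and the range was -0.48 to 0.91. The median size was 0.21 for the members and 0.29 for all tested genes. It was 0.23 for protein-coding genes of at least 5 CPM, close to that of the members. More members had a positive than a negative log2 fold change, 23 of 32 (71.9%) against 50.3% of all tested genes, with a median of 0.12 against 0.003. Among protein-coding genes of at least 5 CPM, 53.9% were positive, with a median of 0.033. The member median was 0.046 with no scaling of the libraries, 0.032 without HER2 L755S 1, where 17 were above 0, and 0.22 without HER2 L755S 2. The median of all tested genes moved as well, to -0.068, -0.052 and -0.031 in the same order.

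In the quasi-likelihood test of edgeR, with p-values adjusted by Benjamini-Hochberg over all tested genes, 0 of 32 members had an adjusted p under 0.05, where 1.69% of all tested genes did. At an unadjusted p under 0.05 there was 1 member, HERPUD1, against 10.5% of all tested genes, and DESeq2 and limma-voom each called 0 members. The smallest adjusted p among the members was 0.26. The absence of a call does not show that levels were equal: the standard errors of the log2 fold change were 0.29 to 0.50, and the 95% interval lay within a 2-fold change in either direction for 20 members and reached beyond it for 12. The interval included 0 for 31 members. The sign of the log2 fold change turned for 20 of 32 members in at least 1 of the fits that leave out 1 library. The 12 that kept it with every library left out in turn were HSPA5, DNAJC3, CALR, PDIA3, PDIA4, HERPUD1, EDEM1, DERL2, SEC61B and ERN1, all positive, and DERL1 and ATF6, both negative. EDEM1 and ERN1 came close to 0 in these fits, at 0.0086 and 0.0089, and each differed in direction between the numbers. How many of all tested genes turned was not counted, so these counts have no background beside them.

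**Figure D1:**
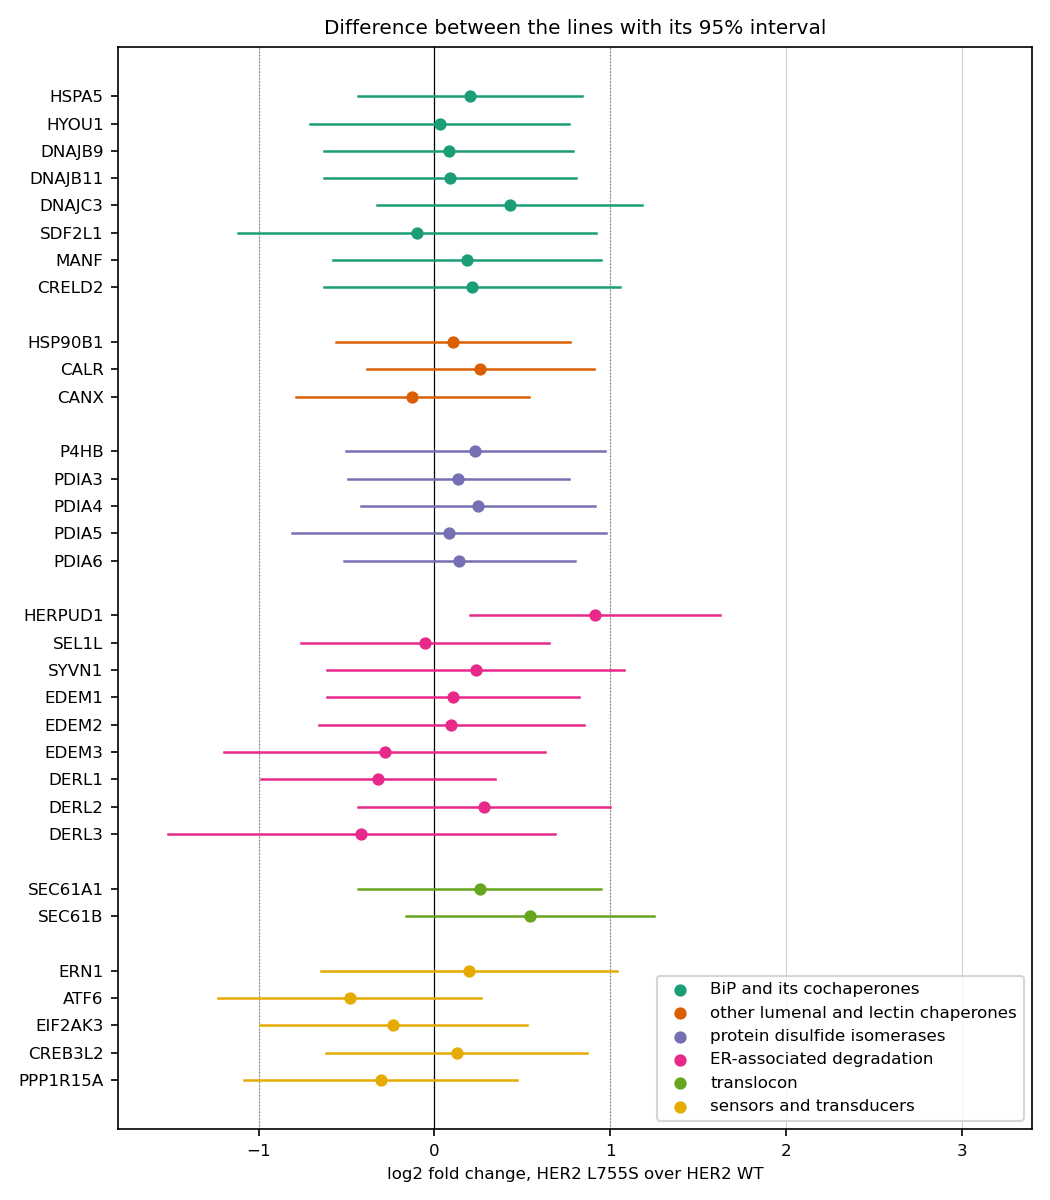
Log2 fold change of each of the 32 members, HER2 L755S over HER2 WT, with its 95% interval from the edgeR fit, ordered by role. HERPUD1 at 0.91 is the member whose interval does not reach 0. The 5 sensors and transducers have a median of -0.23, with median differences of 0.20 within number 1 and -0.08 within number 2.

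Counting libraries without a model, both HER2 L755S libraries lay above both HER2 WT libraries for 6 members, HSPA5, DNAJC3, PDIA3, HERPUD1, DERL2 and SEC61B, which is 6 of 32 beside 16.9% of all tested genes, a share close to that background. Both lay below for 2 members, DERL1 and ATF6, beside 19.3% of all tested genes. The levels of the other 24 members overlapped between the lines.

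Promoters of several members carry ER stress response elements, the sites at which ATF6 and XBP1 are known to act, and 3 of them are shown because these genes bear on the results below. The windows come from RefSeq, run from 250 bases before to 50 bases after each annotated start on GRCh38.p14, and were found for 29 of the 32 members; DERL1, DERL3 and PDIA3 had no entry. Both strands were searched for ERSE (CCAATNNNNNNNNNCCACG), ERSE-II (ATTGGNCCACG) and the core of the XBP1 element, here called UPRE (TGACGTGG). The sequences below read 5′ to 3′ on the strand of the gene, with the bases of a motif in capitals. That of HERPUD1 (chr16:56931892-56932047, plus strand) stops where the gene body begins in GENCODE, and those of HSPA5 (chr9:125241344-125241593, minus strand) and HYOU1 (chr11:119057206-119057455, minus strand) cover the 250 bases before the start.
HERPUD1: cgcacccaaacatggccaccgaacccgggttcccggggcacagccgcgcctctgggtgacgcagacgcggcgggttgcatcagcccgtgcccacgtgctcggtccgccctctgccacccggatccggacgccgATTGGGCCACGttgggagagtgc
HSPA5: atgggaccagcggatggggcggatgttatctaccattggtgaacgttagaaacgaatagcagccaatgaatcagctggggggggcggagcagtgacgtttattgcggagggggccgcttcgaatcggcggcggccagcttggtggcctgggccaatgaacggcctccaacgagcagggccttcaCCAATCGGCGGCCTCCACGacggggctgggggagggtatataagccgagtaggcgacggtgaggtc
HYOU1: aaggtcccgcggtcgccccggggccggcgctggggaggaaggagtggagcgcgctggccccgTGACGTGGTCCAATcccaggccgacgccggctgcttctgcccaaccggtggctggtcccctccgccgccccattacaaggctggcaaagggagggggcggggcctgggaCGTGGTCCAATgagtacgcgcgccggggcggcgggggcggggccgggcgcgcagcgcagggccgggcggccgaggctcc
The HERPUD1 stretch holds ERSE-II on the strand of the gene, and the HSPA5 stretch holds ERSE at 66 to 48 bases before the start. HYOU1 holds ERSE-II on the opposite strand in 2 places, the first of which overlaps its UPRE core.

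The ERSE was present in 6 of the 29 members (20.7%), namely CALR, CANX, CRELD2, HSP90B1, HSPA5 and PDIA6, against 25 of 27305 genes with a window (0.0916%). The ERSE-II was present in HERPUD1, HYOU1 and SDF2L1, 3 of 29 (10.3%) against 0.0696% of all genes. The UPRE core was found in 1 member, HYOU1 (3.45%), against 0.927%. At least 1 of these motifs stood in the window of 9 members (31.0%) and of 295 genes in all (1.08%). The elements were first described in genes of this kind, so their presence here is a description of the promoters and no result about the lines. Members with a motif had a median log2 fold change of 0.14 (9 genes) and members with a window but no motif had 0.12 (20 genes), with ranges of -0.13 to 0.91 and -0.48 to 0.54.

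Of HSPA5 and its helpers, 7 of 8 had a positive log2 fold change, with a median of 0.14, and none passed the test. The 95% intervals of DNAJC3, SDF2L1 and CRELD2 reached beyond a 2-fold change. HSPA5 (ENSG00000044574, GRCh38 chromosome 9, 125234853 to 125241330) encodes BiP, the main HSP70 chaperone of the ER lumen. It stood at 390.1 and 358 CPM in the HER2 WT libraries and 452 and 408 CPM in those of HER2 L755S. Both HER2 L755S libraries were above both HER2 WT libraries, with means of 430.3 ± 31.0 and 374 ± 22.7 CPM (SD, n = 2 each). The log2 fold change was 0.20 (SE 0.29, 95% interval -0.43 to 0.84), with 0.21 within number 1 and 0.19 within number 2 (edgeR, adjusted p = 0.98). The interval of BiP thus lies within a 2-fold change in either direction.

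DNAJB9, a J-domain cochaperone of BiP that is known as a target of XBP1, stood at 47.1 and 49.7 CPM in the HER2 WT libraries and 44.9 and 57.6 CPM in those of HER2 L755S. The HER2 L755S libraries lay on either side of both HER2 WT libraries. The log2 fold change of 0.08 (SE 0.32) joined -0.07 and 0.21 within numbers 1 and 2 (edgeR, adjusted p = 1.00). SDF2L1, which acts with J-domain proteins in the lumen, stood at 34.4 and 11.9 CPM in the HER2 WT libraries and 25.3 and 17.99 CPM in those of HER2 L755S. Its HER2 WT libraries enclosed the HER2 L755S libraries, and the log2 fold change of -0.10 (SE 0.46) joined values of -0.44 within number 1 and 0.59 within number 2 (edgeR, adjusted p = 1.00). Its difference between the HER2 WT libraries, number 2 over number 1, was -1.52 on the log2 scale, the largest of any member in either line.

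DNAJC3, a J-domain cochaperone also known as an inhibitor of PERK, stood at 15.5 and 21.6 CPM in the HER2 WT libraries and 23.2 and 26.8 CPM in those of HER2 L755S. Both HER2 L755S libraries were higher, although HER2 WT 2 came close to HER2 L755S 1. The fit gave a log2 fold change of 0.43 (SE 0.34), with 0.58 and 0.31 within the numbers (edgeR, adjusted p = 0.88). The remaining helpers overlapped between the lines, at log2 fold changes of 0.03 for the BiP exchange factor HYOU1, 0.09 for the cochaperone DNAJB11, 0.19 for the secreted factor MANF and 0.21 for CRELD2. For HYOU1 the difference was 0.29 within number 1 and -0.32 within number 2, since HER2 L755S 1 was the highest library at 148 CPM and HER2 L755S 2 the lowest at 89.0 CPM.

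**Figure D2:**
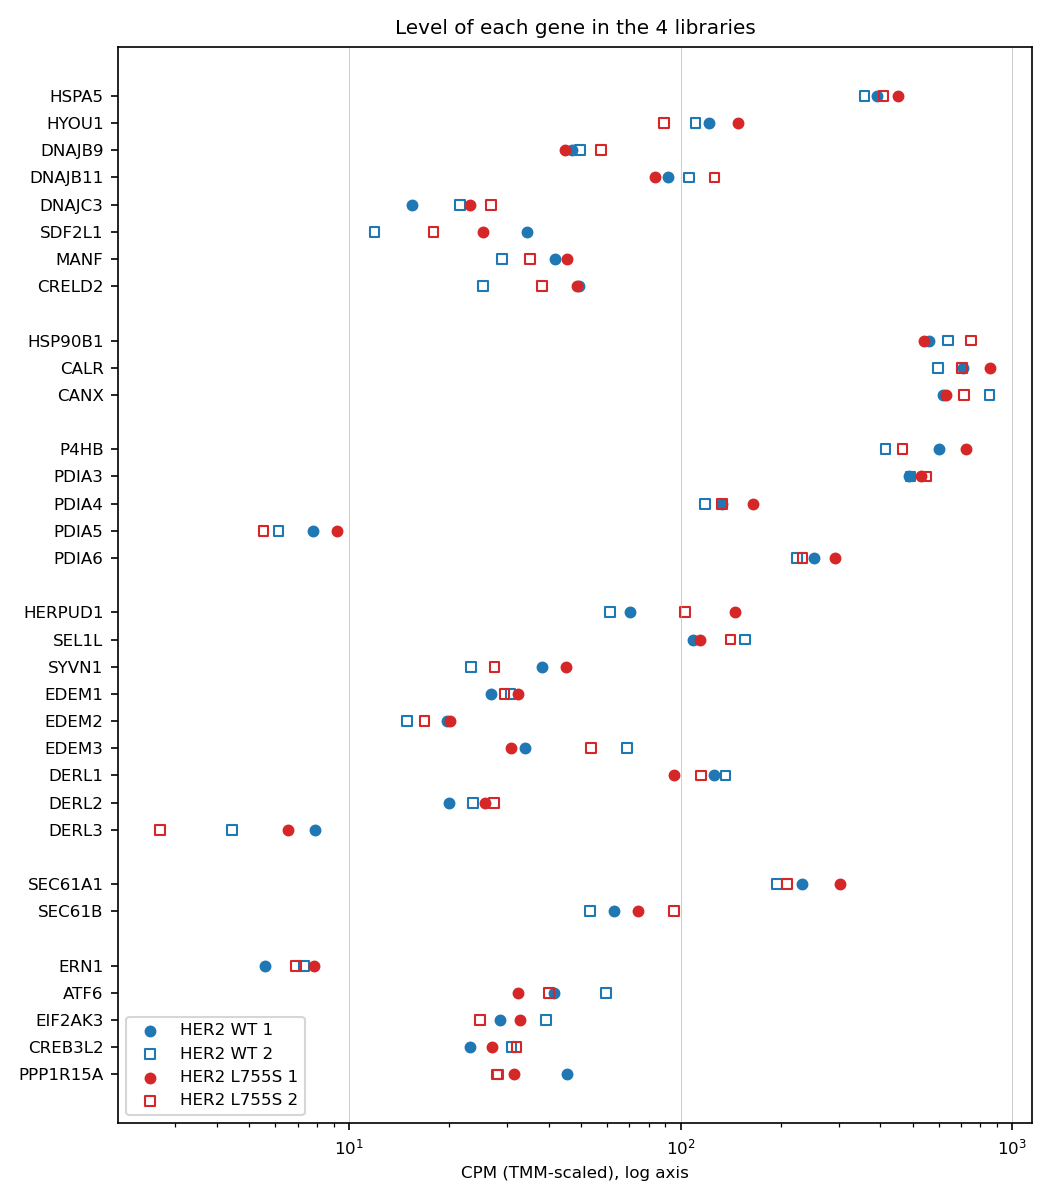
Level of every member in each of the 4 libraries, in CPM on a log axis, with HER2 WT in blue, HER2 L755S in red, number 1 as filled circles and number 2 as open squares. HERPUD1 shows the widest gap between the lines, from 70.5 CPM in HER2 WT 1 to 103 CPM in HER2 L755S 2, while most members have mixed colours.

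Among the other chaperones none passed the test. CALR, the lectin calreticulin, stood at 708 and 595 CPM in the HER2 WT libraries and 859 and 704 CPM in those of HER2 L755S. HER2 WT 1 and HER2 L755S 2 were nearly level, so the lines overlapped, while within each number HER2 L755S was higher, by 0.28 and 0.24 on the log2 scale. The log2 fold change was 0.26 (SE 0.29; edgeR, adjusted p = 0.96). HSP90B1, the HSP90 of the ER lumen, stood at 560.5 and 641 CPM in the HER2 WT libraries and 543 and 751 CPM in those of HER2 L755S. Its HER2 L755S libraries enclosed those of HER2 WT, with a log2 fold change of 0.11 (SE 0.30), made of -0.05 and 0.23 within the numbers (edgeR, adjusted p = 1.00). CANX, the membrane lectin calnexin, stood at 618 and 852 CPM in the HER2 WT libraries and 632 and 716 CPM in those of HER2 L755S, with a log2 fold change of -0.13 (SE 0.30).

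The 5 protein disulfide isomerases, which form and rearrange disulfide bonds, all had positive log2 fold changes, from 0.08 for PDIA5 to 0.25 for PDIA4, and none passed the test. Without HER2 L755S 1 the values of P4HB (-0.12), PDIA5 (-0.33) and PDIA6 (-0.033) were negative. PDIA4 stood at 133 and 118 CPM in the HER2 WT libraries and 165 and 133 CPM in those of HER2 L755S, where HER2 L755S 2 was level with HER2 WT 1. Its log2 fold change was 0.25 (SE 0.30), with 0.31 and 0.17 within the numbers (edgeR, adjusted p = 0.96). PDIA3, which works with the lectins on glycoproteins, was close to constant within a line, at 489 and 493 CPM in the HER2 WT libraries and 529 and 551 CPM in those of HER2 L755S. Its lines did not overlap, yet the difference was small, 0.14 (SE 0.29, 95% interval -0.49 to 0.76). P4HB, the founding isomerase of the family, and PDIA6 had log2 fold changes of 0.23 and 0.14, with positive values within both numbers.

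The degradation machinery, the largest group with 9 genes, spanned the widest range, with log2 fold changes from -0.42 for DERL3 to 0.91 for HERPUD1. After HERPUD1 its highest value was 0.28, for DERL2. The group median was 0.10 with 5 of 9 above 0, and the lowest member of all, ATF6 at -0.48, belongs to the sensors. HERPUD1 (ENSG00000051108, GRCh38 chromosome 16, 56932048 to 56944863) is a partner of the HRD1 ubiquitin ligase complex in the ER membrane and a known target of the unfolded protein response, with the ERSE-II shown above in its promoter. Levels were 70.5 and 61.3 CPM in the HER2 WT libraries, a mean of 65.9 ± 6.56 CPM (SD, n = 2), and 145 and 103 CPM in the HER2 L755S libraries, a mean of 124 ± 29.9 CPM (SD, n = 2). Both HER2 L755S libraries were above both HER2 WT libraries, and the lower of them exceeded HER2 WT 1 by more than the HER2 WT libraries differed. The log2 fold change was 0.91 (SE 0.32, 95% interval 0.20 to 1.62), a fold of 1.88, with 1.04 within number 1 and 0.75 within number 2. The unadjusted p was 0.016 and the adjusted p was 0.26 (edgeR, Benjamini-Hochberg). Without HER2 L755S 1 the log2 fold change was 0.65, and the highest value over all settings tried was 1.14.

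The derlins, membrane proteins that move substrates out of the ER, did not share a direction. DERL1 (chromosome 8) stood at 126 and 137 CPM in the HER2 WT libraries and 95.4 and 115 CPM in those of HER2 L755S, both of which were below the HER2 WT libraries. Its log2 fold change was -0.32 (SE 0.30), with -0.41 and -0.25 within the numbers (edgeR, adjusted p = 0.92). DERL2 stood at 20.02 and 23.7 CPM in the HER2 WT libraries and 25.7 and 27.4 CPM in those of HER2 L755S, with a log2 fold change of 0.28 (SE 0.33) and no overlap. DERL3 was among the members with the fewest counts, at 7.88 and 4.44 CPM in the HER2 WT libraries and 6.53 and 2.69 CPM in those of HER2 L755S. In both lines its number 1 library was the higher, and the lines overlapped. The fit gave a log2 fold change of -0.42 (SE 0.50, 95% interval -1.52 to 0.68), with -0.27 and -0.72 within the numbers (edgeR, adjusted p = 0.96).

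The core of the HRD1 complex also overlapped between the lines. The ligase SYVN1 (HRD1) had a log2 fold change of 0.24 (SE 0.38) and its partner SEL1L one of -0.05 (SE 0.32). EDEM1, EDEM2 and EDEM3, mannosidase family proteins that mark glycoproteins for degradation, had 0.11, 0.10 and -0.28. EDEM3 varied more between the numbers than between the lines, from 34.0 to 68.9 CPM in HER2 WT and from 30.9 to 53.7 CPM in HER2 L755S.

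The translocon, the channel through which new proteins enter the ER, was represented by SEC61A1 and SEC61B. SEC61B, the beta subunit, stood at 63.2 and 53.3 CPM in the HER2 WT libraries and 74.4 and 95.3 CPM in those of HER2 L755S. Both HER2 L755S libraries were higher, with means of 84.9 ± 14.7 and 58.2 ± 7.01 CPM (SD, n = 2 each), a log2 fold change of 0.54 (SE 0.32, 95% interval -0.16 to 1.25) and differences of 0.24 and 0.84 within the numbers (edgeR, adjusted p = 0.70). The pore subunit SEC61A1 stood at 233 and 195 CPM in the HER2 WT libraries and 302 and 209 CPM in those of HER2 L755S, with overlap and a log2 fold change of 0.26 (SE 0.31).

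The sensors and transducers had the lowest median of the 6 groups, -0.23, with 2 of 5 above 0 and none past the test. Their median difference between the lines was 0.20 within number 1 and -0.08 within number 2, so the numbers did not share a direction. ATF6 (ENSG00000118217, GRCh38 chromosome 1, 161766294 to 161964070), whose cleaved part is a transcription factor for chaperone genes, stood at 41.6 and 59.4 CPM in the HER2 WT libraries and 32.3 and 40.0 CPM in those of HER2 L755S. Both HER2 L755S libraries were lower, but HER2 L755S 2 was close to HER2 WT 1. The log2 fold change was -0.48 (SE 0.34, 95% interval -1.23 to 0.27), with -0.37 and -0.57 within the numbers (edgeR, adjusted p = 0.83).

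ERN1, the gene of IRE1, stood at 5.59 and 7.33 CPM in the HER2 WT libraries and 7.86 and 6.93 CPM in those of HER2 L755S. The lines overlapped, with a log2 fold change of 0.20 (SE 0.38) that was 0.49 within number 1 and -0.08 within number 2 (edgeR, adjusted p = 1.00). EIF2AK3, the gene of PERK, stood at 28.5 and 39.3 CPM in the HER2 WT libraries and 32.8 and 24.8 CPM in those of HER2 L755S. The numbers pointed in opposite directions, 0.20 and -0.66, and the fit gave a log2 fold change of -0.23 (SE 0.35; edgeR, adjusted p = 0.98).

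CREB3L2, a membrane-bound transcription factor related to ATF6 in its mode of release, stood at 23.1 and 30.9 CPM in the HER2 WT libraries and 27.0 and 31.98 CPM in those of HER2 L755S. Its lines overlapped, at a log2 fold change of 0.13 (SE 0.34), with 0.22 and 0.05 within the numbers (edgeR, adjusted p = 1.00). PPP1R15A (GADD34), which recruits the phosphatase that ends the translational block by PERK, stood at 45.3 and 28.2 CPM in the HER2 WT libraries and 31.5 and 28.0 CPM in those of HER2 L755S. HER2 WT 1 stood above the other 3 libraries. The fit gave -0.31 (SE 0.35), with -0.53 and -0.01 within the numbers (edgeR, adjusted p = 0.96).

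Levels per length were compared between genes within a library with the deposited TPM values. CALR ranked first of the 32 members in all 4 libraries, at 569.6 and 456 TPM in HER2 WT 1 and 2 and at 673 and 428 TPM in HER2 L755S 1 and 2. The 6 highest members were CALR, P4HB, PDIA3, HSP90B1, SEC61B and CANX in every library, and HSPA5 ranked 8th in every library at 112 to 158 TPM. ERN1 ranked 32nd throughout, at 1.35 to 2.54 TPM with a gene length that itself differed 1.498-fold between libraries, below ATF6 at 5.54 to 10.4 TPM. The 32 members together took 0.319% and 0.297% of all TPM in HER2 WT 1 and 2 and 0.357% and 0.269% in HER2 L755S 1 and 2. These shares were lowest where mitochondrial transcripts took most, 24.3% of TPM in HER2 L755S 2 against 7.78% in HER2 L755S 1, so TPM was not used to compare libraries. With mitochondrially encoded genes left out of the fit, the member median log2 fold change was 0.14 against 0.12 with them. The median of all tested genes was then 0.018, and no member was called. Any other part of the mitochondrial share in the members' CPM values was not tested.

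Within number 1 the median difference between the lines over the 32 members was 0.21, and within number 2 it was 0.16. For 15 members HER2 L755S was higher within both numbers, for 5 it was lower within both, and for 12 the numbers differed in direction. These are 46.9%, 15.6% and 37.5% of the members, beside 33.4%, 32.1% and 34.5% of all tested genes. Among protein-coding genes of at least 5 CPM the shares were 37.2%, 28.9% and 33.8%. The 15 include HSPA5, CALR, PDIA3, PDIA4, P4HB, HERPUD1 and SEC61B, and the 5 are EDEM3, DERL1, DERL3, ATF6 and PPP1R15A. In PPP1R15A the value within number 2 was near 0.

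**Figure D3:**
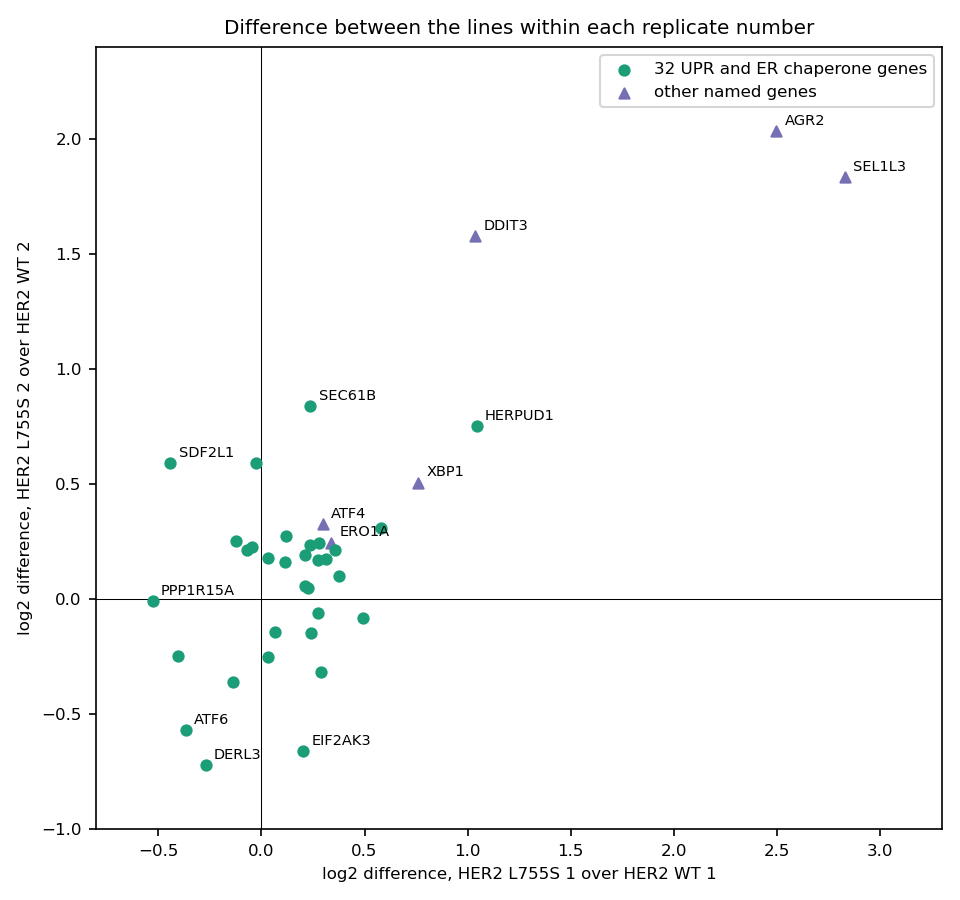
Difference between the lines within number 1 (x axis) and within number 2 (y axis) for each of the 32 members, on the log2 CPM scale. Triangles mark other named genes, XBP1, ATF4, DDIT3, ERO1A, AGR2 and SEL1L3. Among the members, HERPUD1 lies farthest to the right at 1.04 and 0.75, and SEC61B lies highest at 0.24 and 0.84. AGR2 and SEL1L3 lie beyond HERPUD1 on both axes, and DDIT3, at 1.04 and 1.58, lies above it. SDF2L1, EIF2AK3 and HYOU1 are among the 12 members whose values differ in sign.

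The replicate number separated more members than the line did. The deposited tables of both number 2 libraries are marked as merged, without a statement of what was merged. Both number 1 libraries lay above both number 2 libraries for 14 members, beside 26.3% of all tested genes, and both lay below for 7 members, beside 24.2%. The difference between numbers was larger than the difference between lines for 21 of 32 members and for 57.1% of all tested genes. Its median size was 0.34 on the log2 scale for the members, against 0.21 for the difference between lines; over all tested genes these medians were 0.40 and 0.29. SDF2L1, CRELD2, SYVN1 and DERL3 were lower in the number 2 libraries, and EDEM3 and SEL1L were higher there. The mitochondrial share was higher in the number 2 libraries, and the summed level of 13 immediate early genes was lower there, 149.7 and 250.0 CPM against 785 and 892 CPM (HER2 WT, then HER2 L755S). Their part in the differences between numbers was not tested. In these bulk samples, fewer cells of a kind and less RNA per cell cannot be told apart.

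**Figure D4:**
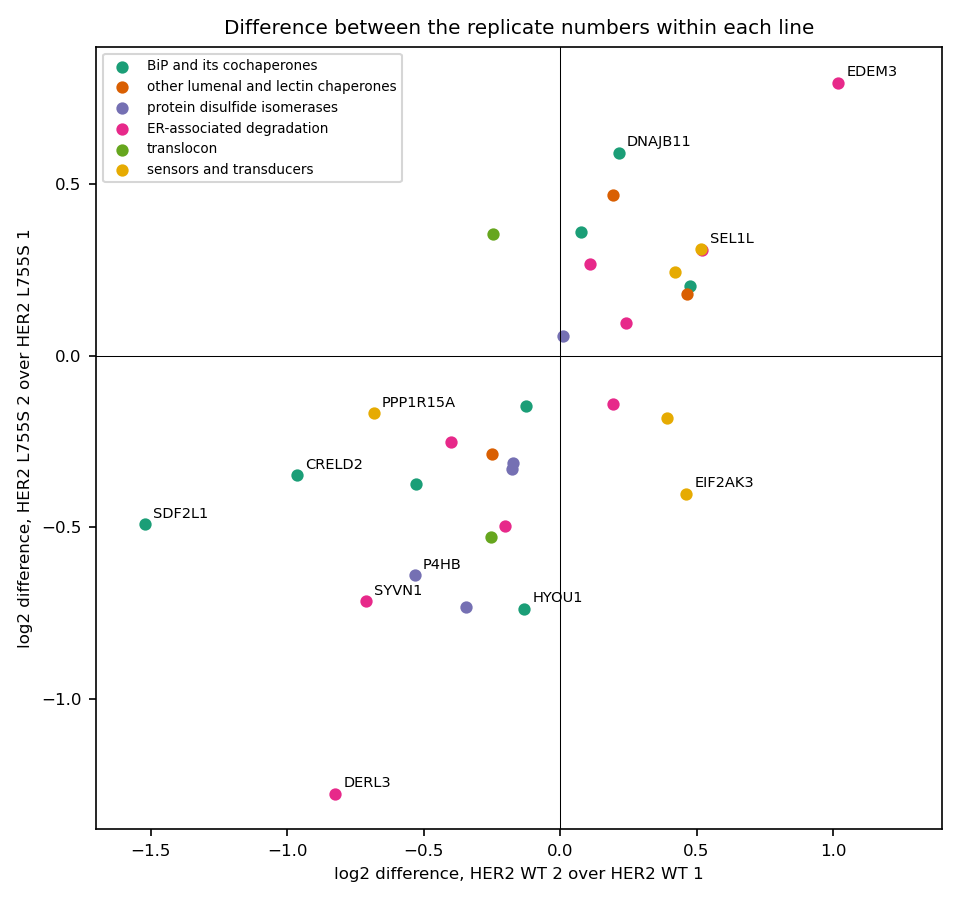
Difference of number 2 over number 1 in HER2 WT (x axis) and in HER2 L755S (y axis) for each of the 32 members, on the log2 CPM scale. SDF2L1 at -1.52 and -0.49 and EDEM3 at 1.02 and 0.80 lie far from 0 on both axes.

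Members on chromosomes 1, 8 and 11 had a lower median than those elsewhere, as did other genes of these chromosomes. The chromosomes were picked from the values of these same data. The lower values of their other genes, and the higher ones elsewhere, thus follow from that choice. On chromosome 8 the median log2 fold change of the other 348 tested protein-coding genes of at least 5 CPM was -0.35, on chromosome 1 it was -0.18 (1113 genes) and on chromosome 11 it was -0.24 (609 genes). DERL1 (-0.32) lies on chromosome 8, ATF6 (-0.48) and EDEM3 (-0.28) on chromosome 1, and HYOU1 (0.03) and SYVN1 (0.24) on chromosome 11. These 5 members had a median of -0.28 with 2 above 0, and both members whose HER2 L755S libraries lay below are among them. The 27 members elsewhere had a median of 0.14 with 21 above 0 (77.8%), where 8770 protein-coding genes of at least 5 CPM outside these chromosomes had a median of 0.08 with 60.02% above 0. Whether the lines differ in copy number was not measured, and the part of position in these values was not tested.

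Genes of the same pathway outside the 32 were mostly uncalled too, with 2 calls among 6 lists. Over all tested genes 1.69% were called, and 10.5% had an unadjusted p under 0.05 (edgeR). Of 25 other genes of the signalling branches, all tested, 18 had a positive log2 fold change (median 0.15) and 0 were called. At an unadjusted p under 0.05 there were 5 higher and 1 lower. DESeq2 called 2 higher (TRIB3 and CHAC1) and 1 lower (STC2), beside 2.05% of all genes it tested, and limma-voom called 0. XBP1, the transcription factor that IRE1 activates, stood at 1589 and 1625 CPM in the HER2 WT libraries and 2695 and 2308 CPM in those of HER2 L755S. Both HER2 L755S libraries were above, yet the adjusted p was 0.45, for a log2 fold change of 0.64 (SE 0.28, 95% interval 0.02 to 1.26), with 0.76 and 0.51 within the numbers (edgeR, unadjusted p = 0.044).

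ATF4, the factor translated when PERK is active, stood at 501 and 386 CPM in the HER2 WT libraries and 617 and 484 CPM in those of HER2 L755S, with overlap and a log2 fold change of 0.31 (SE 0.31; edgeR, adjusted p = 0.93). DDIT3 (CHOP), a target of ATF4 tied to cell death under ER stress, stood at 15.8 and 8.23 CPM in the HER2 WT libraries and 32.4 and 24.6 CPM in those of HER2 L755S. Its lines did not overlap, with means of 12.0 ± 5.37 and 28.5 ± 5.56 CPM (SD, n = 2 each). The log2 fold change was 1.24 (SE 0.40, 95% interval 0.37 to 2.12), with 1.04 and 1.58 within the numbers, at an unadjusted p of 0.0092 and an adjusted p of 0.19 (edgeR). With 1 library left out, DDIT3 ran from 0.86 without HER2 WT 2 (edgeR, adjusted p = 0.78) to 1.79 without HER2 WT 1 (adjusted p = 0.048). The other 4 genes of this list with an unadjusted p under 0.05, named for that after their values were seen, did not share a direction. TRIB3, CHAC1 and NUPR1 had log2 fold changes of 1.62, 2.05 and 3.86 (edgeR, adjusted p = 0.16, 0.19 and 0.057), and STC2 had -2.05 (adjusted p = 0.053).

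Of 39 tested genes of ER folding and oxidation outside the 32, from a list of 41, 28 had a positive log2 fold change (median 0.14) and 1 was called. AGR2, a secreted disulfide isomerase of glandular epithelia, rose from 1.48 and 2.41 CPM in the HER2 WT libraries to 8.44 and 9.93 CPM in HER2 L755S, a log2 fold change of 2.24 (SE 0.44; edgeR, adjusted p = 0.028), with 2.50 and 2.04 within the numbers. Without HER2 WT 1 its value was 1.92 at an adjusted p of 0.055. ERO1A, the oxidase that recharges disulfide isomerases, overlapped between the lines at a log2 fold change of 0.29 (edgeR, adjusted p = 0.96).

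Of 35 other degradation genes, all tested, 28 had a positive log2 fold change (median 0.14) and 1 was called. This was SEL1L3, a paralog of SEL1L for which a part in the HRD1 complex is not established, which rose from 1.67 and 1.76 CPM in the HER2 WT libraries to 12.0 and 6.31 CPM in HER2 L755S, a log2 fold change of 2.41 (SE 0.46; edgeR, adjusted p = 0.026), with 2.83 and 1.84 within the numbers. SEL1L itself had -0.05. None was called among 38 genes of translocation, signal peptidase and glycosylation (median 0.13, 27 above 0; 2 lower at an unadjusted p under 0.05), 33 tested genes of ER to Golgi transport (median 0.08, 24 above 0; 0 at an unadjusted p under 0.05) or 25 heat shock genes of the cytosol and mitochondria (median 0.10, 18 above 0; 0 at an unadjusted p under 0.05). DESeq2 and limma-voom also called 0 in these last 3 lists. The heat shock proteins, which lie outside the ER, thus had a median close to that of the 32 members.

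**Figure D5:**
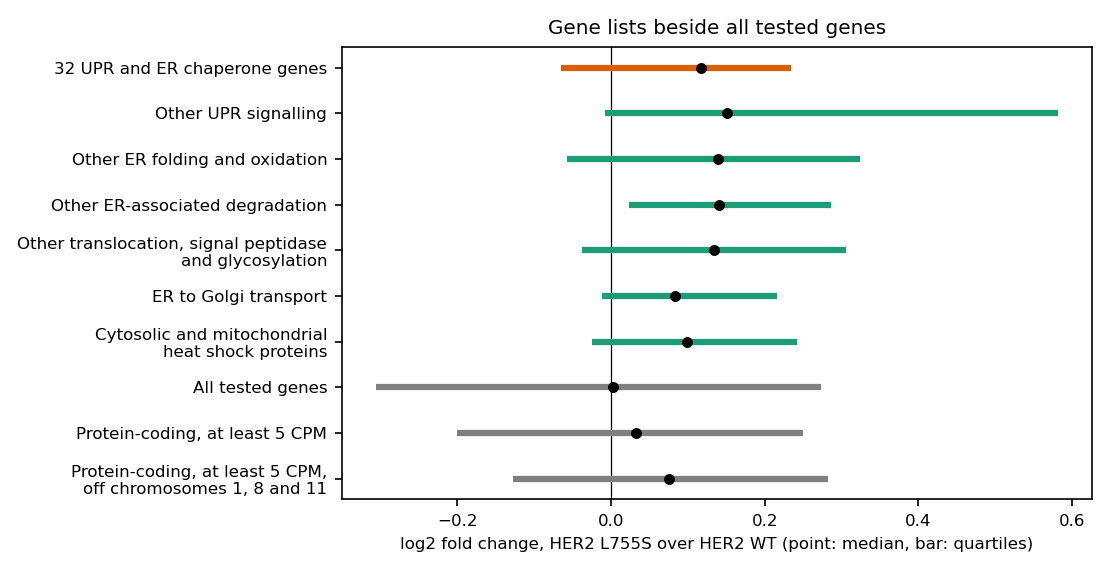
Median log2 fold change, HER2 L755S over HER2 WT, with the middle 50% of genes, for the 32 members, the other pathway lists and all tested genes. Protein-coding genes of at least 5 CPM are also shown, over all chromosomes and outside chromosomes 1, 8 and 11. The medians of the pathway lists run from 0.08 to 0.15 beside 0.12 for the members and 0.003 for all tested genes.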

How the data were processed

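Gene expression was measured by poly(A) RNA sequencing in 4 libraries, 2 from each line, grouped by their titles. A TruSeq kit was used on 250 ng of total RNA, per the labels' protocols. Per the file headers, the deposited tables are RSEM output with an expected count, a TPM value and an length per gene, all computed by the authors. RSEM shares reads that fit several genes, and 9.53% to 11.5% of genes in a library had a count that was not whole; among the members, 27 of 32 had whole counts in all libraries within 1e-06, and PDIA3, PDIA6, SEC61A1, ATF6 and EIF2AK3 did not. STAR, edgeR and GRCh38 are named in the submitters' processing notes. Annotation release and strand setting are not given in the sources used here; antisense reads may therefore count toward a gene they overlap.

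The estimates were rounded, filtered with filterByExpr (16538 of 60675 genes kept), scaled by TMM (factors 0.937 to 1.04) and tested between the lines by quasi-likelihood in edgeR 4.0.16 (R 4.3.3), two-sided, without a replicate term, and with Benjamini-Hochberg adjustment over all tested genes at 0.05. CPM used the scaled library totals, and sums over marker lists the unscaled ones; differences within a number are on log2 CPM with a prior count of 0.5. Intervals are at 95%, from the standard error of the fit. Deposited TPM compared genes within a library. Gene positions are from GENCODE 29. Promoter windows are from RefSeq, with 35116 windows for 27305 genes; some genes have several. Protein ends were not analysed here.

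The members and lists were chosen with earlier results of these data known. Named in full are any called member, 12 members of central function, and the 3 members with the largest log2 fold change in each direction; of other genes XBP1, ATF4, DDIT3, ERO1A and up to 4 called genes per list. Alternatives were DESeq2 1.42.0, its size factors in edgeR, limma-voom (limma 3.58.1), no scaling, no filter, a minimum of 50 counts in 2 libraries, a replicate block, a threshold of 0.01 and leaving out each library. Further runs left out the mitochondrially encoded genes, or chromosomes 1, 8 and 11.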

Additional observations from a re-analysis of the deposited data

How the results depend on the processing

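No member passed the test with DESeq2, limma-voom, other scalings, other filters or any library left out. The labels do not say that libraries with the same number were made together. Over all tested genes, the deviations of the number 1 libraries from their line means correlated at 0.42 between the lines. With 2 libraries a line, the deviations of the number 2 libraries mirror these and add no further value. With the replicate number as a block, 1 member (3.13% of 32) was called, HERPUD1 at a log2 fold change of 0.90 and an adjusted p of 0.0044, beside 1743 of all tested genes (10.5%) against 279 without the block, and DDIT3 was called at 1.30. The block called 4 higher and 1 lower of the other signalling genes, 3 and 1 of folding and oxidation, 1 and 1 of degradation and 2 and 2 of translocation, signal peptidase and glycosylation, and 0 of ER to Golgi transport and of the heat shock genes. Over all tested genes, 559 were called with DESeq2, 759 with no filter and 98 at an adjusted p of 0.01, and 344 to 542 with 1 library left out. The member median of 0.12 was 0.046 with no scaling, and ran from 0.032 to 0.22 with 1 library left out. It was lowest without HER2 L755S 1 (17 of 32 above 0) and highest without HER2 L755S 2. Over all tested genes the median was -0.068 with no scaling, -0.052 without HER2 L755S 1 and -0.031 without HER2 L755S 2. The number of members without overlap between the lines, 8 of 32, was 7 to 10 with other scalings, with other filters and without mitochondrial genes, and 6 of 27 without chromosomes 1, 8 and 11. With 1 library left out, the sign turned for 20 of 32 members, 11 of them without HER2 WT 2 and 10 without HER2 L755S 1. The share of all tested genes that turned was not counted. Among members named in full, the log2 fold change ran from -0.15 to 0.32 for HSP90B1 and from -0.11 to 0.25 for DNAJB9 (negative without HER2 L755S 2), from -0.66 to 0.85 for SDF2L1 (positive without HER2 WT 1 or HER2 L755S 2), from -0.072 to 0.37 for CREB3L2 (negative without HER2 WT 1 or HER2 L755S 2, at -0.003), from -0.45 to 0.027 for EIF2AK3 (positive without HER2 WT 2), from -0.60 to 0.072 for PPP1R15A (positive without HER2 WT 1) and from -1.20 to 0.078 for DERL3 (positive without HER2 WT 1 or HER2 L755S 2). SDF2L1 also turned with limma-voom (0.070) and with the block (0.060). The cause was not tested. HERPUD1 kept its direction in all of them, at 0.65 to 1.14 with an adjusted p of 0.0044 to 0.77. With 2 libraries a line, standard errors of 0.29 to 0.50 limit what can be seen, and with 1 library left out the lone library is assumed to vary like the other line.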

Other observations

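The deposited gene length of some members differed between libraries, which moves TPM but not CPM. The ratio of the longest to the shortest length was 1.60 for DERL3, 1.498 for ERN1, 1.37 for DNAJB11 and 1.36 for CANX, the 4 highest of the 32 members. Of 7432 genes with at least 500 expected counts in each library, 7.90% had a ratio above that of CANX, and the median ratio was 1.09. CANX, the most abundant of the 4, had a length of 3967 bases in HER2 WT 1, 3086 in HER2 WT 2, 3576 in HER2 L755S 1 and 4185 in HER2 L755S 2. It stood at 218 and 377 TPM in HER2 WT and at 242 and 182 TPM in HER2 L755S, against 618 and 852 CPM and 632 and 716 CPM. The lengths follow which transcripts RSEM assigned the reads to, and the difference between libraries was not tested.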
